A study of Mus musculus with 20 samples.

Results

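The machinery that stores transmitter in synaptic vesicles, docks the vesicles at the presynaptic active zone and fuses them with the plasma membrane was followed through 36 genes, chosen by name from the 24419 genes of the counts table for their place in that machinery. They comprised 6 vesicle membrane proteins, 3 synapsins, 9 calcium sensors or related C2-domain proteins, 4 SNAREs, 2 complexins, 3 Rab3 GTPases, 7 active zone scaffolds and 2 priming factors. All 36 passed the filter on low counts and were among the 14411 genes tested. The libraries came from hippocampal cultures of C57BL6 mouse embryos taken at embryonic day 18, with the tissue of 4 embryos pooled before dissociation. Every group shared the same history of growth in Neurobasal medium with B27 supplement, 4 µM cytosine arabinoside (which kills dividing cells) between days 3 and 6, and stimulation on day 10 in vitro. The zinc chelator TPA, tris(2-pyridylmethyl)amine, was added at 10 µM together with 50 µM glutamate in the first group (TPA), which had also spent 1 min in TPA beforehand. The second group (zinc) received 50 µM glutamate and 10 µM ZnCl2 together. Glutamate alone at 50 µM was given to the glutamate group, and the control group received medium only. The stimulus was kept on for 2 min, and RNA was taken after 90 min at 37 °C, with 5 libraries per group. No group analysed here received TPA or ZnCl2 without glutamate, and the comparisons address how transcription after a glutamate pulse depends on the zinc present during it.

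Synaptic vesicles carry SNARE proteins of the VAMP family in their membrane, which pair with syntaxin and SNAP-25 in the plasma membrane and pull the membranes together. Synaptotagmins sense the calcium that enters with an action potential, complexins hold and prime the assembled SNAREs, and Munc13 and RIM proteins prepare docked vesicles for fusion. Bassoon, Piccolo and the ELKS proteins scaffold the active zone, Rab3 GTPases tether vesicles to it, and synapsins hold vesicles in a reserve pool. In the hippocampus these proteins are present at both glutamatergic and GABAergic terminals, where zinc is also stored in the glutamatergic vesicles of mossy fibres.

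Library totals ran from 28692470 to 40934630 counts, and no pair of libraries within a group agreed within counting noise. Fosb, a transcription factor gene induced by activity, served as the check of the stimulus. It averaged 17.9 ± 0.561 CPM (counts on a common library scale after TMM scaling) in TPA, 14.3 ± 2.78 CPM in zinc, 18.7 ± 3.07 CPM in glutamate and 8.05 ± 0.693 CPM in control (SD, n = 5 each). Fosb rose over control in all 3 stimulated groups, with log2 fold changes of 1.15, 0.83 and 1.22 in the same order and adjusted p from edgeR's quasi-likelihood test of 2.86e-05, 0.00304 and 1.31e-05. The cultures expressed neuronal markers at a summed 5058 to 5840 TPM (a per-length scale of transcript abundance) for 9 pan-neuronal genes, among them Tubb3 and Rbfox3. The glutamatergic marker Slc17a7 ran from 368 to 502 TPM and the GABAergic marker Gad1 from 494 to 631 TPM. Summed astrocyte markers ran from 376 to 470 TPM and microglial markers from 4.55 to 11.9 TPM, while the haemoglobin genes Hba-a1, Hba-a2, Hbb-bs and Hbb-bt were at 0 in every library. These are bulk cultures, so fewer cells of a type and less RNA per cell cannot be told apart. Replicates 4 and 5 of glutamate and replicate 5 of zinc lay farthest from the other libraries of their own groups, by root mean square distance over all tested genes (0.300, 0.311 and 0.299 log2 units, against 0.187 to 0.272 in the other 17 libraries). Calls of members that change without these 3 are given both ways, while most fold changes are given with all libraries only. The labels call the libraries biological replicates, but since tissue was pooled, p-values here reflect the spread between these samples alone.

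The most abundant transcript of the machinery was Vamp2, the principal vesicle SNARE of forebrain synapses, at a mean of 1839 TPM over the 20 libraries (1753 to 1985). Syp, the vesicle membrane protein synaptophysin, followed at 1400 TPM (1319 to 1487), Rab3a, the main Rab3 GTPase of synaptic vesicles, at 1106 TPM (1055 to 1196), and the plasma membrane SNARE Snap25 at 961 TPM (771 to 1102). Syn1 (synapsin I) stood at 737 TPM, the complexins Cplx2 and Cplx1 at 697 and 681 TPM, and Syt1, the fast calcium sensor of release, at 559 TPM. Each of these transcripts was abundant in every library of every group.

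Next came 9 genes between 303 and 510.2 TPM. They were Syt11, a synaptotagmin that does not bind calcium, at 510.2 TPM, the vesicle glycoprotein gene Sv2a at 440.2 TPM, the synaptogyrins Syngr3 and Syngr1 at 395 and 385 TPM, and Syt4 at 393 TPM. Stx1a, the plasma membrane SNARE syntaxin 1A, stood at 373 TPM, Syt5 at 308 TPM, Syn2 at 305 TPM and Rab3c at 303 TPM. Another 7 genes lay between 104 and 218 TPM. These were Sv2b at 218 TPM, the principal Munc13 gene Unc13a at 159 TPM, Rab3b at 137 TPM, the ELKS scaffolds Erc2 and Erc1 at 124 and 122 TPM, Syt7, a slow calcium sensor linked to asynchronous release and vesicle replenishment, at 123 TPM, and Bsn (Bassoon) at 104 TPM.

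Below 100 TPM the scaffold Rims1 stood at 97.2 TPM, Syt3 at 52.2 TPM, Pclo (Piccolo) at 49.4 TPM, and the soluble calcium sensors Doc2b and Doc2a at 50.0 and 40.0 TPM. Rims3 followed at 35.3 TPM, Syn3 at 32.3 TPM, the second Munc13 gene Unc13b at 27.5 TPM, Rims2 at 26.4 TPM and Vamp1 at 11.8 TPM. Sv2c reached 7.39 TPM. Syt2, the fast sensor of hindbrain and fast-spiking interneuron terminals, reached 0.559 TPM and was counted 16 to 33 times per library. The interneuron marker Pvalb, which labels fast-spiking cells, was at a mean of 1.46 TPM. It was the lowest of the 12 interneuron markers read, with Vip next at 2.74 TPM. Others were far higher, among them Sst at 1022 TPM, Gad1 at 590 TPM and Lhx6 at 59.9 TPM. Whether the levels of Syt2 and Pvalb are linked was not tested. The mean of Vamp2 was 3291-fold that of Syt2. Of the 35 neighbouring pairs in this order, 25 had ranges over the 20 libraries that overlapped. Overlap does not settle the order, since both genes of a pair are read in the same library. Within libraries, 12 of the 35 pairs kept their order in all 20, among them the overlapping pairs Cplx1 over Syt1 and Erc1 over Bsn. Other pairs had no steady order, such as Cplx2 over Cplx1 in 10 of the 20. Together the 36 genes held 1.25% to 1.35% of all TPM in a library.

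**Figure D1:**
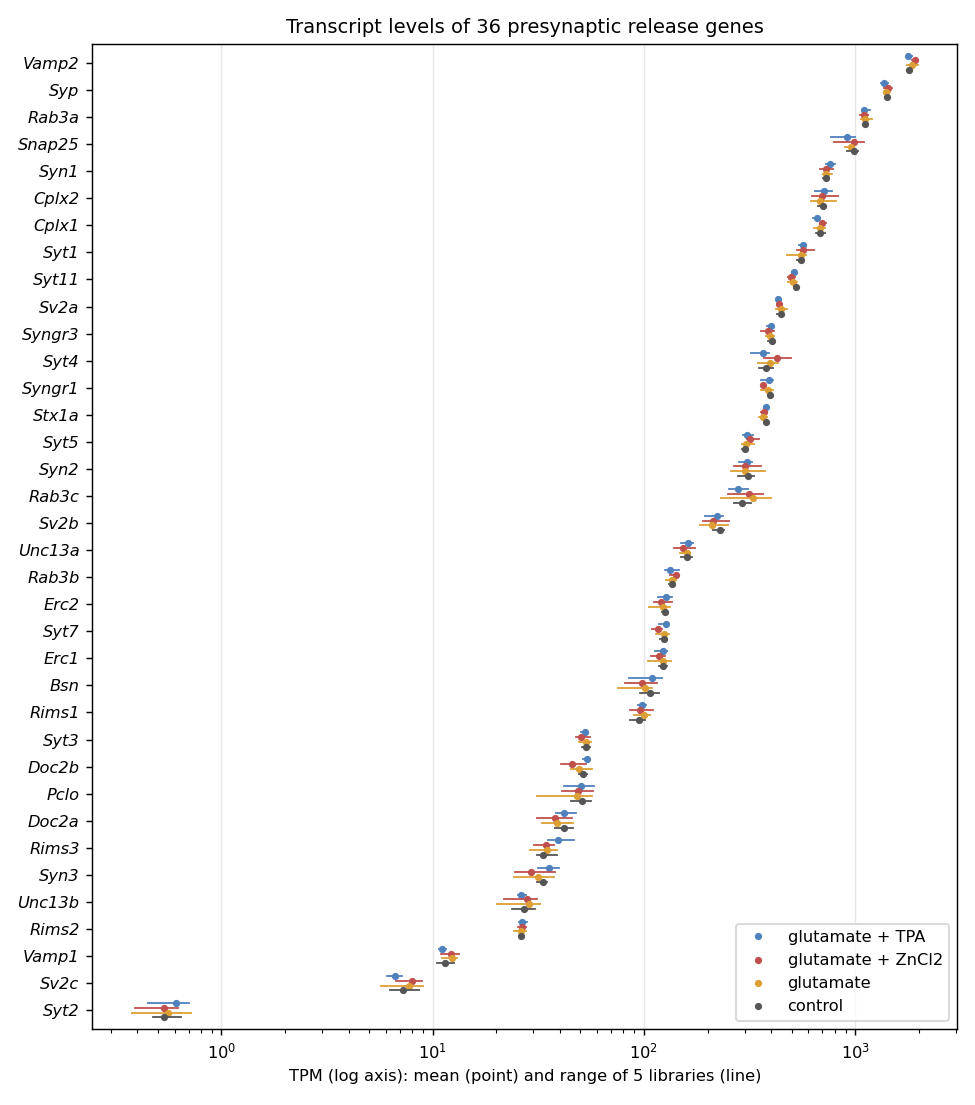
Levels of the 36 genes in TPM on a log axis, ordered by their mean over 20 libraries; each point is the mean of 5 libraries of a group (glutamate + TPA, glutamate + ZnCl2, glutamate, control) and each line the range of those libraries. The points of the 4 groups lie close together for every gene, while the genes span from 0.559 TPM (Syt2) to 1839 TPM (Vamp2).

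Most families, taken over the 36 genes only, were dominated by a single paralog on the TPM scale. Syt1 made up 99.9% ± 0.0175 of the summed Syt1 and Syt2, and Vamp2 made up 99.4% ± 0.0466 of the summed Vamp1 and Vamp2 (SD over 20 libraries). Unc13a held 85.2% ± 1.68 of the Munc13 pair, Rab3a 71.6% ± 2.22 of the 3 Rab3 genes, Syn1 68.6% ± 2.44 of the 3 synapsins, Bsn 67.8% ± 1.75 of Bassoon and Piccolo, and Sv2a 66.2% ± 2.32 of the 3 SV2 genes. Rims1 held 61.1% ± 1.64 of the summed Rims1, Rims2 and Rims3, a sum without Rims4, which is not among the 36 genes. Doc2a and Doc2b were closer to even, with Doc2b at 55.6% ± 1.65 of their sum, which leaves out Doc2g. Other pairs were even: Cplx1 held 49.5% ± 2.60 of the complexins, Syngr1 49.3% ± 1.41 of the synaptogyrins, and Erc1 49.6% (47.4% to 51.7%) of the ELKS pair.

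The shares were also followed by group. The share of Syn1 was 68.9% ± 1.93 in TPA, 68.8% ± 2.77 in zinc, 68.7% ± 3.67 in glutamate and 68.1% ± 1.69 in control (SD, n = 5 each). The share of Syn3, the minor synapsin, was 3.22% ± 0.249 in TPA, 2.75% ± 0.402 in zinc, 2.94% ± 0.442 in glutamate and 3.10% ± 0.142 in control. Rims3 is a short RIM protein without the zinc finger and PDZ domains of Rims1. It held 23.9% ± 1.60 of the summed Rims1, Rims2 and Rims3 in TPA, 21.9% ± 1.37 in zinc, 21.6% ± 1.82 in glutamate and 21.5% ± 1.29 in control. The counted exons of Rims3 sum to 977 bases, against 6505 bases in its longest GENCODE M21 transcript, so its TPM and its share depend on that short model. Those of Syn3 sum to 11838 bases, against 4775, so its low share depends on a long model. Shares of Unc13b (6391 against 14754 bases), Sv2c (4252 against 9101 bases), Rims1 (4067 against 6446 bases), Rims2 (7940 against 4800 bases) and Vamp1 (3154 against 5709 bases) depend on their models too. The order of levels given above depends on the models as well, as for Snap25 (2237 against 4880 bases) and Syt2 (3386 against 6879 bases). The ranges of the 4 groups overlapped for the shares of Syn1, Syn3 and Rims3, and no test was made of them.

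Members also differed in how steady they were from culture to culture. The highest library exceeded the lowest by 1.10-fold for Stx1a, the steadiest gene, and by 1.91-fold for Syt2, with a median of 1.29-fold over the 36 genes and 26 of them within 1.5-fold. The coefficient of variation over 20 libraries was 2.78% for Stx1a, 3.06% for Syp and 3.94% for Vamp2. It was highest for Syt2, the rarest member, at 18.1%, followed by 14.8% for Rab3c, 14.4% for Pclo, 14.3% for Sv2c, 13.9% for Syn3 and 13.2% for Bsn. Much of this spread fell within groups. Glutamate replicate 4 was the lowest of all 20 libraries for 12 of the 36 genes, among them Bsn at 402 CPM, against 538 to 581 CPM in the other 4 glutamate libraries. Zinc replicate 5 was the highest of all libraries for 10 genes, among them Syt1 at 1032 CPM, against 862 to 896 CPM in the other 4 zinc libraries.

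**Figure D2:**
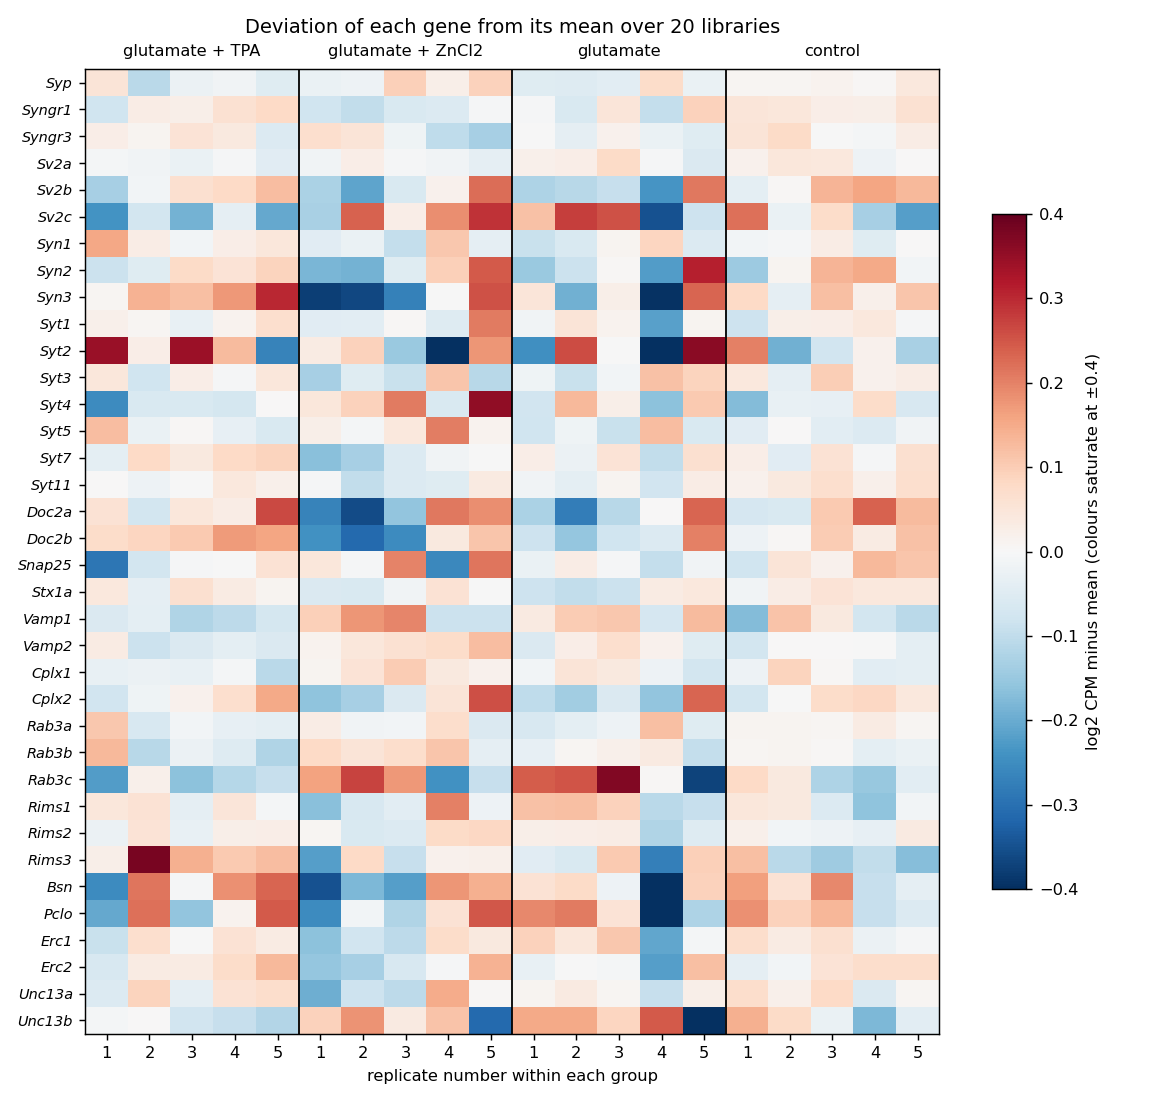
Log2 CPM of each of the 36 genes (rows, grouped by role) in each of the 20 libraries (columns, replicates 1 to 5 of glutamate + TPA, glutamate + ZnCl2, glutamate and control), minus the gene's mean over all libraries, with colours saturating at 0.4. Single columns such as glutamate replicate 4 stand out more than whole groups do.

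Promoters were read for 26 of the 36 genes, those with an entry in the RefSeq promoter table for GRCm38.p6 (250 bases before to 50 after the start). Where a gene had several promoters there, such as Sv2b with 4, only the first was searched. Stretches of 3 promoters are shown because they hold motifs of factors known to act on neuronal or activity-regulated genes. In capitals are the REST (neuronal silencer factor) left motif TTCAGCACC, the REST right motif GGACAGC, the CREB motif TGACGTCA and the AP-1 motif TGACTCA, on either strand.
Syn1 chrX:20921059-20921158, minus strand: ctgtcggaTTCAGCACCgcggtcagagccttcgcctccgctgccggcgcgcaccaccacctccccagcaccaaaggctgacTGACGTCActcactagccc
Unc13a chr8:71671724-71671753, minus strand: ggcGCTGTCCgcgcccccGGTGCTGAAgcg
Erc2 chr14:27622342-27622371, plus strand: gaatgctgggaatgTGAGTCAgggcctggg

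The Syn1 stretch runs from 240 to 141 bases before the start and holds the REST left motif and the CREB motif. The Unc13a stretch, from 5 to 34 bases after the start, holds both REST motifs in reverse orientation with 8 bases between them, and the Erc2 stretch holds the AP-1 motif in reverse orientation. The REST left motif lay in 2 of the 26 promoters (7.69%), against 0.359% of 27025 promoters, the first listed for each gene symbol. The REST right motif lay in 1 of the 26 (3.85%, against 6.59%). The CREB motif lay in 1 (3.85%, against 1.88%), the AP-1 motif in 1 (3.85%, against 5.17%) and the EGR motif GCGTGGGCG in 1 (3.85%, against 0.625%). The core of the metal response element, TGCGCNC or TGCACNC, which the zinc sensor MTF-1 recognises, lay in 10 promoters (38.5%, against 25.6% of all). All motifs were searched on both strands. A match describes letters in this window, not a bound site.

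The first comparison asks whether the glutamate pulse alone moved release genes within 90 min. None of the 36 passed an adjusted p of 0.05 for glutamate against control in edgeR's quasi-likelihood test, and 0.0208% of all genes (3 of 14411) did. None reached an unadjusted p of 0.05, against 4.98% of all genes, and DESeq2 called none (0.0972% of all genes). The median log2 fold change of the 36 was -0.02, beside -0.002 over all genes, and 10 of the 36 were positive, beside 48.9% of all genes. The 95% interval of the fold change lay within 1.25-fold in either direction for 30 of the 36 (83.3%, beside 71.1% of all genes). It lay within 1.5-fold for all 36, beside 86.9% of all genes. These shares, here and below, are not matched for expression level. Of the 36, 24 averaged over 100 TPM, while all genes tested include rare ones.

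The smallest p-values for glutamate against control belonged to Stx1a, Syt11, Sv2b and Vamp1. Stx1a had 242, 240, 242, 262 and 264 CPM in glutamate, against 254, 262, 267, 264 and 264 CPM in control. The first 3 glutamate libraries lay below every control library and the other 2 among them. Its log2 fold change was -0.07 (SE 0.04, adjusted p = 0.95 by edgeR). Syt11 averaged 765 ± 22.0 CPM in glutamate and 797 ± 13.2 CPM in control, Sv2b 394 ± 48.1 and 435 ± 26.6 CPM, and Vamp1 12.8 ± 0.688 and 11.97 ± 0.971 CPM (SD, n = 5 each). Their log2 fold changes were -0.06 (SE 0.03), -0.14 (SE 0.08) and 0.10 (SE 0.06), each with an adjusted p of 0.95 by edgeR, and each pair of groups overlapped. The exons of Sv2b overlap those of a gene on the opposite strand, as do those of Syn1, Doc2a, Rab3a and Rab3b, and the sources used here do not say whether reads were counted by strand.

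Glutamate with zinc was then set against control, a comparison that shares its control libraries with the previous one. No member passed the adjusted threshold by edgeR, beside 0.0416% of all genes (6 genes), and DESeq2 called none (0.444% of all genes). Unadjusted p-values under 0.05 were reached by 6 members (16.7%), against 11.1% of all genes. Of these, Vamp2 and Syt4 were higher with zinc (5.56%, against 5.35% of all genes), and Syngr1, Syt11, Doc2b and Syt7 lower (11.1%, against 5.7%). The median log2 fold change was -0.02 beside 0.002 over all genes. The 95% interval lay within 1.25-fold for 29 of the 36 (80.6%, beside 69.2% of all genes). It lay within 1.5-fold for all 36, beside 86.3% of all genes.

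Libraries of zinc and control did not overlap for 2 members (5.56%, against 2.66% of all genes), Syngr1 and Vamp2. Syngr1, a vesicle protein related to synaptophysin, had 539, 532, 547, 549 and 568 CPM in zinc, against 590, 588, 581, 579 and 595 CPM in control. All 5 zinc libraries lay below all 5 control libraries, by -0.10 on the log2 scale (SE 0.04, adjusted p = 0.346 by edgeR). Vamp2 had 1334, 1365, 1378, 1391 and 1438 CPM in zinc, against 1255, 1323, 1323, 1319 and 1285 CPM in control. Here every zinc library lay above every control library, by 0.09 on the log2 scale (SE 0.03, adjusted p = 0.365 by edgeR). Syt4 averaged 556 ± 62.5 CPM in zinc and 492 ± 30.0 CPM in control (SD, n = 5 each), and Syt11 756 ± 26.9 CPM in zinc and 797 ± 13.2 CPM in control. Their libraries overlapped, and their log2 fold changes were 0.18 (SE 0.07, adjusted p = 0.369 by edgeR) and -0.08 (SE 0.03, adjusted p = 0.379 by edgeR). Without the 3 libraries farthest from their groups, 2 members passed by edgeR for zinc against control (5.56%, against 1.59% of all genes). They were Syn3 (log2 fold change -0.31, adjusted p = 0.0423) and Doc2b (-0.23, adjusted p = 0.0334). The 3 libraries were picked for their distance in these same data. Leaving them out narrows the spread within groups, so p-values from that fit are likely too small. With library weights in limma-voom, 12 members passed (33.3%, against 12.7% of all genes), among them Syn3, Doc2b, Syngr1 and Syt4. The weights were estimated from the spread in these same data, so p-values from that fit may be too small.

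For glutamate with TPA against control, again with the same control libraries, no member passed by edgeR, beside 0.0694% of all genes (10 genes), and DESeq2 called none (0.0694% of all genes). Rims3 alone had an unadjusted p under 0.05 (2.78% of members, against 3.09% of all genes). It had 11.6, 14.9, 12.6, 12.3 and 12.4 CPM in TPA, against 12.4, 10.6, 10.3, 10.6 and 10.1 CPM in control. Only control replicate 1 reached into the range of the TPA libraries, and the log2 fold change was 0.23 (SE 0.08, unadjusted p = 0.00793, adjusted p = 1 by edgeR). The next smallest p-values belonged to Snap25, Syn1 and Sv2c. Snap25 averaged 684 ± 60.7 CPM in TPA and 736 ± 42.0 CPM in control (log2 fold change -0.11, SE 0.07), with TPA replicate 1 at 583 CPM the lowest of all libraries. Without that library the log2 fold change was -0.05. Syn1 and Sv2c had log2 fold changes of 0.06 (SE 0.04) and -0.14 (SE 0.11), and all 3 had an adjusted p of 1 by edgeR. Of the 36 intervals, 32 lay within 1.25-fold (88.9%, beside 72.4% of all genes). Only that of Syt2 reached beyond 1.5-fold (-0.22 to 0.59 on the log2 scale), while 87% of all genes lay within it. No member had libraries of the 2 groups that did not overlap, for TPA against control (1.33% of all genes did) or for glutamate against control (0.985%).

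The comparison of zinc with glutamate alone isolates the added ZnCl2. No member passed by edgeR, and neither did any other gene (0% of genes called). DESeq2 called no member either, and 0.0139% of all genes. No member had an unadjusted p under 0.05, against 5.98% of all genes. Of the 36 intervals, 34 lay within 1.25-fold (94.4%, beside 71.7% of all genes, which were not matched for expression level). The smallest p-values belonged to Syt7, with 270 ± 13.6 CPM in zinc and 286 ± 13.3 CPM in glutamate (SD, n = 5 each), and to Vamp2, with 1381 ± 38.4 and 1323 ± 48.2 CPM. Their log2 fold changes were -0.08 (SE 0.04, adjusted p = 0.844 by edgeR) and 0.06 (SE 0.03, adjusted p = 0.856 by edgeR). Syt4 followed at 0.13 (SE 0.07, adjusted p = 0.862 by edgeR) and the vesicle synaptotagmin Syt5 at 0.08 (SE 0.05, adjusted p = 0.875 by edgeR). Each rested in part on 1 zinc library, with 0.07 for Syt4 without zinc replicate 5 and 0.04 for Syt5 without zinc replicate 4. Across the 36 genes the log2 fold changes ran from -0.09 to 0.13, the narrowest range of the 6 comparisons, with 18 positive and 18 negative. In no member were the libraries of zinc and glutamate apart, against 0.701% of all genes.

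Chelation was compared with the same glutamate libraries. No member passed by edgeR for TPA against glutamate, nor did any other gene (0% called), and DESeq2 called no member and 0.00694% of all genes. Unadjusted p-values under 0.05 were reached by Rims3, Vamp1 and Rab3c (8.33% of members, against 7.15% of all genes). Rab3c had 725, 860, 756, 784 and 794 CPM in TPA, against 1003, 1009, 1095, 850 and 656 CPM in glutamate. The first 3 glutamate libraries lay above all TPA libraries, and replicate 5 lay below them, so the log2 fold change was -0.24 with an SE of 0.11 (adjusted p = 0.699 by edgeR). No member had separate libraries here, against 1.03% of all genes. Rims3 averaged 12.7 ± 1.24 CPM in TPA and 11.2 ± 1.16 CPM in glutamate (log2 fold change 0.19, SE 0.08, adjusted p = 0.681 by edgeR). Vamp1 averaged 11.6 ± 0.268 and 12.8 ± 0.688 CPM (-0.14, SE 0.07, adjusted p = 0.697 by edgeR), and Doc2b 76.2 ± 2.29 and 68.8 ± 6.87 CPM (0.15, SE 0.07, adjusted p = 0.699 by edgeR). Without the 3 distant libraries, 2 of which are glutamate libraries, 3 members passed: Rab3c (-0.40, adjusted p = 0.0214), Sv2c (-0.37, adjusted p = 0.0311) and Doc2b (0.22, adjusted p = 0.036). That was 8.33% of the members, against 3.79% of all genes in the same fit. The 3 libraries were picked for their distance, so p-values from that fit are likely too small. With library weights in limma-voom, Rab3c and Doc2b passed (5.56%, against 3.36% of all genes). The weights came from these same data, so those p-values may be too small as well.

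The comparison of TPA with zinc sets chelated against added zinc during the same pulse. It gave the most calls of the 6, with 0.513% of all genes past the adjusted threshold (51 higher with TPA and 23 lower). No member passed by edgeR, and a share that small leaves few calls to expect among 36 genes. Unadjusted p-values under 0.05 were reached by 11 of the 36 (30.6%, against 16.0% of all genes), 5 higher with TPA (13.9%, against 8.36%) and 6 lower (16.7%, against 7.68%). The higher ones were Doc2b, Syt7, Syn3, Rims3 and Syngr1. The lower ones were Syt4, Vamp2, Sv2c, Cplx1, Vamp1 and Rab3b. The median log2 fold change of the members was 0.04, beside -0.001 over all genes, and it was -0.004 without zinc replicate 1. Intervals lay within 1.25-fold for 27 of the 36 (75%), beside 66.6% of all genes. They lay within 1.5-fold for all but Syt2, beside 85.2% of all genes.

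**Figure D3:**
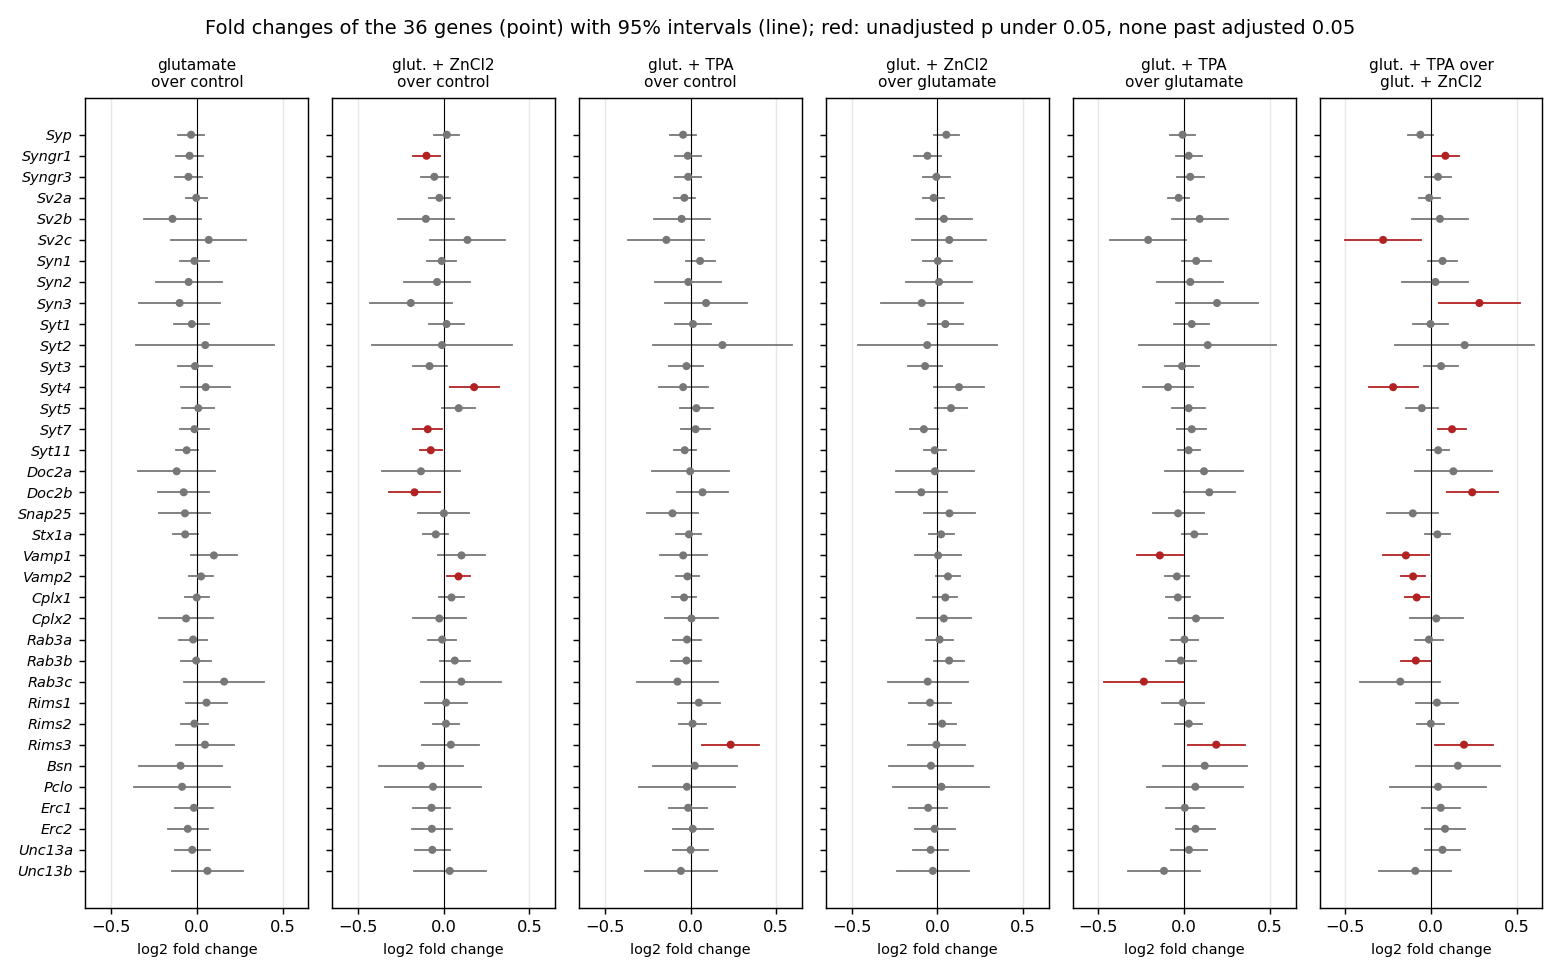
Log2 fold changes (points) with 95% intervals (lines) of the 36 genes in the 6 comparisons, from edgeR; points in red had an unadjusted p under 0.05. No gene passed an adjusted p of 0.05 in any panel, and the panel of TPA over zinc holds 11 of the red points, against 0 to 6 in the others.

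Doc2b, a soluble high-affinity calcium sensor linked to spontaneous and asynchronous release, came nearest to the threshold. It lies on chromosome 11 (mm10, 75769090 to 75796057). It had 73.9, 74.5, 75.4, 79.0 and 78.2 CPM in TPA, against 59.4, 56.6, 58.9, 72.1 and 75.8 CPM in zinc. Zinc replicates 1 to 3 lay well below every TPA library, while replicates 4 and 5 lay close to them. The fold was 1.18 (log2 fold change 0.24, SE 0.07, 95% interval 0.09 to 0.39, adjusted p = 0.104 by edgeR). In glutamate alone Doc2b ranged from 63.0 to 80.7 CPM and in control from 69.2 to 76.1 CPM, and the means of both groups (68.8 and 72.6 CPM) lay between those of TPA (76.2 CPM) and zinc (64.5 CPM).

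Syt4 is a synaptotagmin of dense-core and recycling vesicles that binds calcium weakly and is known as an activity-induced gene. It had 425, 486, 486, 483 and 508 CPM in TPA, against 522, 540, 585, 486 and 648 CPM in zinc. Zinc replicate 4 lay among the TPA libraries, and the other 4 zinc libraries lay above them. The fold was 0.858 (log2 fold change -0.22, SE 0.07, adjusted p = 0.118 by edgeR). Syt4 averaged 510 ± 43.0 CPM in glutamate and 492 ± 30.0 CPM in control (SD, n = 5 each).

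Vamp2 also lies on chromosome 11 (mm10, 69088528 to 69092381). It had 1353, 1244, 1270, 1286 and 1270 CPM in TPA, against 1334, 1365, 1378, 1391 and 1438 CPM in zinc. Only TPA replicate 1 reached into the zinc range, and the fold was 0.930 (log2 fold change -0.10, SE 0.03, adjusted p = 0.121 by edgeR). Syt7, on chromosome 19 (mm10, 10389090 to 10453181), had 277, 301, 292, 301 and 303 CPM in TPA, against 253, 259, 274, 282 and 284 CPM in zinc. Again TPA replicate 1 was the exception among libraries that otherwise lay apart, and the fold was 1.09 (log2 fold change 0.12, SE 0.04, adjusted p = 0.132 by edgeR). Both differences were under 10% of the level.

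**Figure D4:**
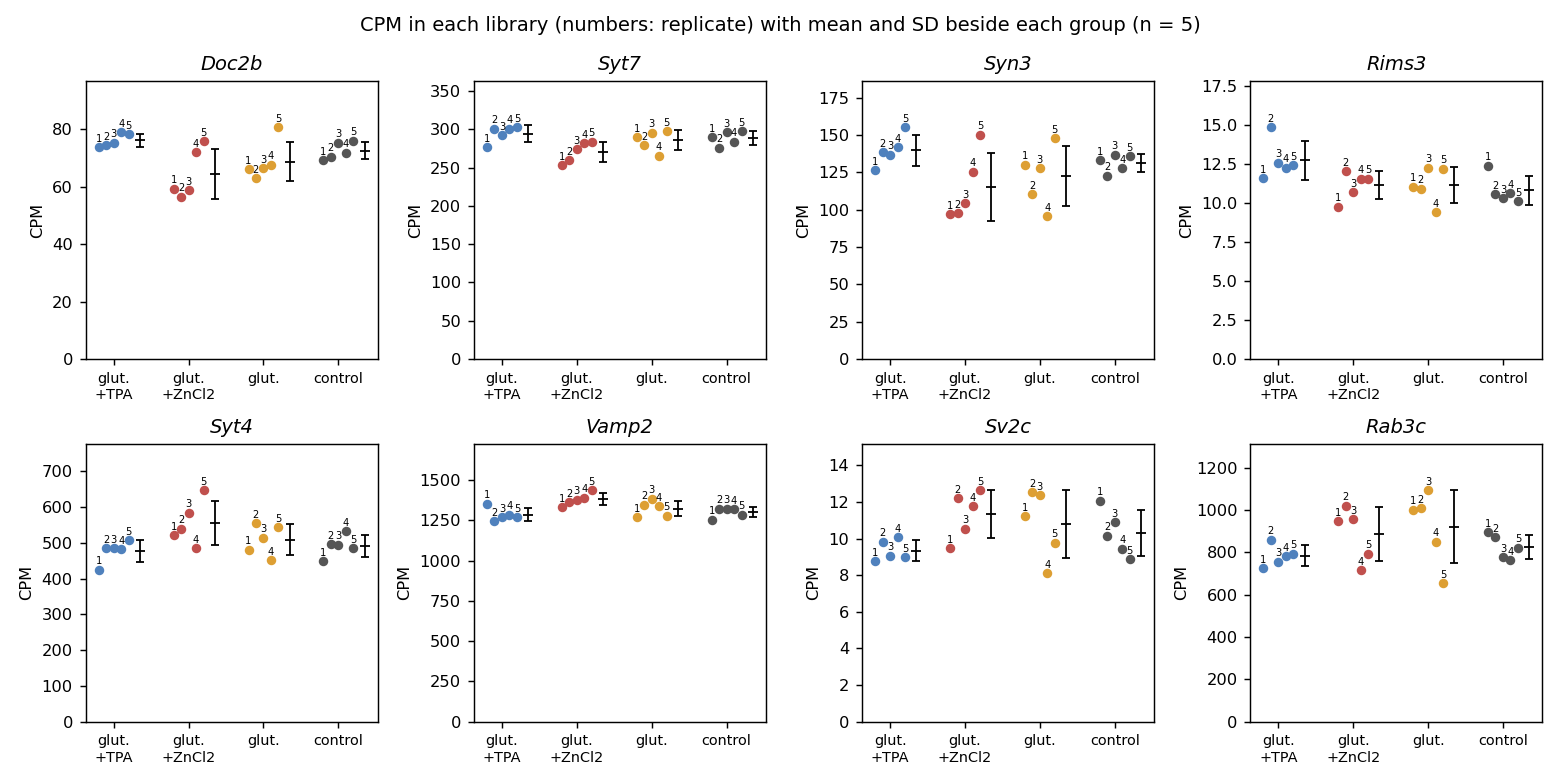
CPM of 8 genes in each library (points, numbered by replicate) with the mean and SD of each group (n = 5) beside them, for glutamate + TPA, glutamate + ZnCl2, glutamate and control; axes start at 0. In Doc2b, Syt7 and Syn3 most zinc libraries lie below the TPA libraries, and in Syt4, Vamp2 and Sv2c most lie above them, with overlap in each.

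Among the other members with small unadjusted p-values, Syn3 and Sv2c had the widest differences. Syn3 had 127, 139, 137, 142 and 155 CPM in TPA, against 96.9, 97.9, 104, 126 and 150 CPM in zinc, a difference of 0.28 on the log2 scale (SE 0.11, adjusted p = 0.224 by edgeR). Sv2c had 8.76, 9.83, 9.07, 10.1 and 8.97 CPM in TPA, against 9.46, 12.2, 10.5, 11.8 and 12.6 CPM in zinc, a difference of -0.28 on the log2 scale (SE 0.11, adjusted p = 0.195 by edgeR). In each gene a single zinc library lay within the TPA range. Cplx1 was the only member whose TPA and zinc libraries did not overlap (2.78% of members, against 3.13% of all genes). It had 486, 488, 486, 493 and 460 CPM in TPA, against 499, 515, 531, 509 and 502 CPM in zinc, and its log2 fold change was -0.08 (SE 0.03, adjusted p = 0.226 by edgeR).

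By role, all 3 Rab3 genes had negative and all 3 synapsins positive log2 fold changes for TPA over zinc, with medians of -0.09 and 0.07. Of all genes, 49.7% were positive. The most abundant Rab3 gene, Rab3a, lay near 0 at -0.01 (SE 0.04), as did Syn2 at 0.03 (SE 0.09), so the signs do not show a shift of either family. The 4 SNAREs had a median of -0.11 with 1 positive, Stx1a, and 6 of the 7 active zone scaffolds were positive with a median of 0.06. The 9 calcium sensors and C2-domain proteins divided, with 6 positive, and ran from -0.22 (Syt4) to 0.24 (Doc2b). None of these roles had a member past the adjusted threshold, and the role counts are descriptions.

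Some members crossed the threshold with another tool or without single libraries, and in those fits more of all genes did too. DESeq2 called Vamp2 (-0.10, adjusted p = 0.0281) and Doc2b (0.24, adjusted p = 0.0375) for TPA against zinc. That was 5.56% of the members, against 4.49% of the 11058 genes that DESeq2 gave an adjusted p in this comparison. The authors' deposited table runs as zinc over TPA and therefore with the opposite sign. The same pair passed there by DESeq2, Vamp2 at a shrunken log2 fold change of 0.10 (adjusted p = 0.0307) and Doc2b at -0.17 (adjusted p = 0.0400). Of the 12069 genes with an adjusted p in that table, 3.78% passed. The authors' deposited tables called no member in the other 5 comparisons. Without zinc replicate 4, edgeR called 3 members, Doc2b (0.28, adjusted p = 0.0253), Syt4 (-0.27, adjusted p = 0.0247) and Syt7 (0.14, adjusted p = 0.0495), or 8.33% of members against 6.2% of all genes. Without zinc replicate 5 it called Doc2b (0.30, adjusted p = 0.0295) and Syn3 (0.40, adjusted p = 0.0492), or 5.56% against 1.59%. Over the 10 fits that left out 1 library of these groups, the log2 fold change of Doc2b ran from 0.20 to 0.30 and its adjusted p from 0.0253 to 0.283. Without the 3 distant libraries 5 members passed, Syn3 (0.40), Doc2b (0.30), Syt7 (0.14) and Erc2 (0.13) as higher with TPA and Unc13b (-0.16) as lower. That was 13.9% of members, against 7.9% of all genes. The 3 libraries were picked for their distance, so p-values from that fit are likely too small. Library weights in limma-voom, estimated from these same data, gave 16 members (44.4%), against 21.7% of all genes. Its p-values may be too small for that reason.

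The base composition of the transcripts is given beside these fold changes. Across the 36 genes, the log2 fold change of TPA over zinc had a Pearson correlation of 0.464 and a Spearman correlation of 0.479 with the GC content of the longest annotated transcript, beside a Pearson correlation of 0.24 over 13880 genes. All points share the same 10 libraries and genes are not independent replicates. Syt4 (40.7% GC) and Rab3c (41.9% GC) lay at the low end of GC with negative values, and Bsn (59.8% GC) and Doc2a (60.4% GC) at the high end with positive ones. Doc2b has 55.2% GC, while Syn3 with 45.3% GC had the largest positive value. After a smooth offset on GC content within each library, Doc2b stood at 0.21 (adjusted p = 0.208 by edgeR), Syt4 at -0.16 (adjusted p = 0.136), Vamp2 at -0.12 (adjusted p = 0.12) and Syt7 at 0.09 (adjusted p = 0.353). No member passed with that offset.

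**Figure D5:**
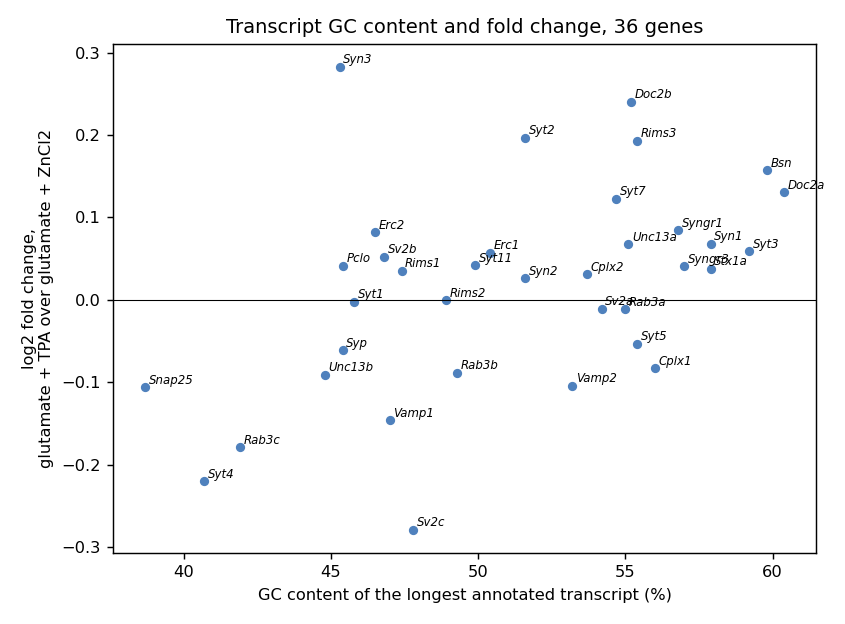
GC content of the longest annotated transcript (percent) against the log2 fold change of glutamate + TPA over glutamate + ZnCl2 for the 36 genes, each point a gene. Members with low GC such as Syt4 and Rab3c lie below 0 and members with high GC such as Bsn and Doc2a above it, with Syn3 and Sv2c farthest from 0.

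The rest of the release machinery was read in the same fits. A list of 75 further genes (other synaptotagmins, SNAREs and their regulators, liprins, RIM-binding proteins and vesicle recycling factors) had 74 members in the counts table and 73 tested. None passed the adjusted threshold by edgeR in any of the 6 comparisons, where 0% to 0.513% of all genes did. Shares that small leave few calls to expect among 73 genes. For TPA against zinc, 6 of the 73 had an unadjusted p under 0.05 (8.22%, against 16.0% of all genes), 2 higher and 4 lower. The smallest p-values there belonged to Ppfia2, an active zone liprin, at -0.11 on the log2 scale (SE 0.03, adjusted p = 0.122 by edgeR), and to Rims4, a short RIM protein like Rims3, at 0.19 (SE 0.06, adjusted p = 0.15 by edgeR).

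In the other comparisons the list members with the smallest p-values had adjusted p-values of 0.364 or more by edgeR. For glutamate against control they were Synj1, the phosphatase that strips coats from endocytosed vesicles, at -0.09, and Doc2g at 0.30. For zinc against control they were Ppfia2 at 0.09 and the SNARE Vamp4 at 0.14, and for TPA against control Doc2g at 0.40 and Cadps, a priming factor for dense-core vesicles, at -0.10. For zinc against glutamate they were Napg at 0.09 and the RIM-binding protein gene Bzrap1 at -0.11, and for TPA against glutamate Vamp4 at -0.15 and Snap29 at -0.07. Doc2g was rare, at a mean of 1.68 CPM in control, 2.08 CPM in glutamate and 2.21 CPM in TPA. Its log2 fold changes each had an SE of 0.15. The median log2 fold change of the list lay between -0.02 and 0.01 in all 6 comparisons.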

How the data were processed

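The authors deposited raw gene counts for 20 libraries, and these counts entered every test. A deposited table of TPM, which equals the counts over gene length rescaled per library, gave the levels between genes. The authors' deposited comparison tables hold a mean normalized signal, a shrunken log2 fold change, a Wald score and p-values per gene, and are named wherever quoted. The submitters' processing notes list the build mm10, HISAT2 2.1.0, featureCounts, Trimmomatic 0.36, DESeq2 1.14.1, SAMtools 1.3.1 and R 3.3.0. The strand setting of the counting is not stated in the sources used here.

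One edgeR 4.0.16 quasi-likelihood model (robust spread, TMM scaling, filterByExpr, R 4.3.3) with 4 group means, fitted to all 20 libraries without a covariate, gave 6 contrasts, with Benjamini-Hochberg adjustment over 14411 genes (99.98% of counts) and a threshold of 0.05. A check of the test on simulated counts held no outlying libraries, so it cannot vouch for the test under the spread seen here. Library totals of 28692470 to 40934630 left the rarest member, Syt2, with 16 to 33 counts, so its fold changes carry the widest intervals.

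Members and gene lists were chosen with earlier results of these data known. Where no member passed, those with the 4 smallest p-values are named per comparison, and the 2 smallest for the list of other release genes. Other members, named for unadjusted p-values under 0.05 or for calls under another setting, were chosen after their values were seen. Alternatives were DESeq2 size factors, library size alone, no filter, DESeq2 1.42.0, fits of 2 groups, a replicate block and each library left out. Chosen after seeing the data were a GC offset (loess span 0.5), non-robust edgeR, limma 3.58.1 voom with library weights, and fits without 3 distant libraries. Protein comparisons of paralogs were not used here.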

Additional observations from a re-analysis of the deposited data

Results flagged for a closer look

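In 15 of the 144 combinations of a member and a group, a single library stood apart from the other 4 by Dixon's test at the 95% level, which chance alone does in about 1 in 20 groups. Glutamate replicate 4 accounted for 5 of them. It was lowest for Bsn (401.88 CPM, against 537.76 to 581.11 CPM in the other glutamate libraries), Syt1 (768.74, against 884.57 to 926.05 CPM) and Unc13a (392.85, against 420.96 to 429.88 CPM). It was highest for Rab3a (579.96, against 509.5 to 525.46 CPM) and Syp (1214.6, against 1112.9 to 1131.8 CPM). Glutamate replicate 5 accounted for 3, as the highest for Cplx2 (1336.9, against 1019.2 to 1093.4 CPM) and Doc2b (80.686, against 62.988 to 67.633 CPM) and the lowest for Unc13b (43.208, against 61.524 to 68.683 CPM).

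In the TPA group, replicate 5 was lowest for Cplx1 (460.19, against 485.63 to 492.95 CPM) and replicate 1 lowest for Syt4 (425.45, against 482.69 to 507.51 CPM). In the zinc group, replicate 5 was highest for Syt1 (1032.1, against 862.16 to 896.42 CPM) and replicate 4 highest for Syt5 (205.82, against 177.71 to 183.78 CPM). In control, replicate 4 was highest for Rab3a (544.94, against 535.41 to 537.49 CPM), replicate 1 highest for Rims3 (12.408, against 10.132 to 10.637 CPM) and replicate 5 highest for Syp (1188.7, against 1158.4 to 1164.6 CPM).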

How the results depend on the processing

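No member was called for glutamate against control, TPA against control or zinc against glutamate under any alternative run, and the 24 fold changes of the members with the 4 smallest p-values per comparison kept their direction in every fit. For TPA against zinc, DESeq2 called 2 members, beside 4.49% of the 11058 genes it gave an adjusted p. Members called were 5 without the 3 distant libraries (7.9% of all genes) and 16 with library weights in limma-voom (21.7%). For zinc against control they were 2 without the 3 distant libraries (1.59% of all genes) and 12 with library weights (12.7%), and for TPA against glutamate 3 (3.79%) and 2 (3.36%). The library weights were estimated from these same data. They were 0.284 to 0.409 for TPA replicate 1, zinc replicates 4 and 5 and glutamate replicates 4 and 5. For the other 15 libraries they were over 1. The cause of these shifts was not tested.

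Counts over all genes moved more. For glutamate against control, with 3 in the model above, they were 5 with DESeq2 size factors, 14 with DESeq2, 100 without the 3 distant libraries, 6 with non-robust edgeR and 59 with library weights. For zinc against control (6) they were 64 with DESeq2, 231 without the 3 libraries and 1825 with library weights. For zinc against glutamate (0) they were 2, 1 and 107 in the same order, and for TPA against glutamate (0) they were 1, 551 and 484. For TPA against zinc (74) they were 37 with library size alone, 41 with no filter on low counts, 496 with DESeq2, 6 with the 2 groups fitted alone, 1149 without the 3 libraries, 25 with the GC offset and 3131 with library weights.

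Leaving out each library in turn gave 0 to 3 members and 5 to 899 genes for TPA against zinc, both highest without zinc replicate 4, and 0 members in the other comparisons. Genes called ran from 2 to 5 for glutamate against control, 3 to 100 for zinc against control, 6 to 10 for TPA against control, 0 to 3 for zinc against glutamate and 0 to 2 for TPA against glutamate. The median log2 fold change of the members for TPA against control ran from -0.0187 to 0.0031, the upper end without TPA replicate 1. For TPA against zinc it ran from -0.0037 to 0.0487, the lower end without zinc replicate 1, and for zinc against glutamate from -0.021 to 0.0172.

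The labels do not say what the replicate numbers share, and same-numbered libraries deviated together in some pairs only. Over 30 same-numbered pairs, which reuse the libraries across comparisons, correlations of deviations from the group means ran from -0.07 to 0.497. They exceeded 0.1 in 11 pairs (3 of 5 for TPA against zinc), and in 8 pairs the first library correlated best with its own number. With the replicate number as a block, 2 members were called for TPA against zinc, Doc2b (0.25, adjusted p = 0.0194 by edgeR) and Syt4 (-0.22, adjusted p = 0.0393 by edgeR), with 422 genes in all (2.93%), and 39 genes were called for zinc against control. Depth limits Syt2 most among the members.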
